A study of Mus musculus with 15 samples.

Results

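The SLAM family receptors and their adaptor SAP were followed in regulatory T (Treg) cells, the CD4 T cells that restrain other immune cells. The 6 genes are Slamf1 (SLAM, CD150), Slamf6 (Ly108), Ly9 (CD229), Cd84, Cd48 and Sh2d1a, which encodes SAP. They were taken by symbol, and all 6 were found among the 30949 genes listed in every library and among the 29989 genes tested. The rule uses symbols only.

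Treg cells (CD25+CD39+, and CD3+ or CD4+ depending on the label) came by cell sorting from the spleen and lymph nodes of C57BL/6 females of genotype Foxp3YFP-Cre/+ Dock8flox/flox. All 4 groups come from mice of this genotype. The YFP+ cells, called KO here, have Cre driven by the Foxp3 gene and are labelled DOCK8 deficient. The YFP- cells, called WT, carry the same floxed Dock8 alleles without active Cre. Cells were cultured for 16 h in medium alone (4 WT and 6 KO libraries) or with anti-CD3+CD28 beads at 1 bead per cell (3 WT and 2 KO libraries), and read by Smart-Seq2, which copies polyadenylated RNA without marking its strand. The labels call the samples independent but do not say whether mice or cultures were separate, so each p-value covers only the spread among the samples given, which may be technical. Foxp3 and Sh2d1a both lie on the X chromosome, and a female cell silences 1 X. For Sh2d1a, use of the Cre-bearing X therefore cannot be told apart from DOCK8 deficiency, nor can YFP and Cre for any gene.

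SLAM receptors sit on lymphocytes and mostly bind their own kind on the neighbouring cell. Their tails hold a tyrosine motif to which SAP, a small adaptor with an SH2 domain, binds, bringing the kinase FYN to the receptor, while the phosphatase SHP-1 can bind the same motif when SAP is absent. CD48 differs: it is held in the membrane by a lipid anchor and is a ligand of CD2 and of 2B4 (the product of Cd244a). SLAM receptors and SAP are known for prolonged contacts between T and B cells in germinal centres and for the development of NKT cells. DOCK8 activates CDC42 and organises actin at such contacts.

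The tail motif is the feature by which the receptors divide into those that can bind SAP and CD48, which cannot, so its coding sequence is shown for each receptor. It was searched as threonine, any residue, tyrosine, any 2 residues, then valine or isoleucine, after the hydrophobic membrane segment of the principal coding transcript in GENCODE vM21. Slamf1 (343 residues), Slamf6 (331), Ly9 (654) and Cd84 (329) each held 2 such motifs in the tail. The 240-residue product of Cd48 has 2 residues after its hydrophobic C-terminal segment and no tail motif. The 126-residue SAP has no membrane segment to search behind. The codons are written 5′ to 3′, with the tyrosine codon in capitals and residues counted from the starting methionine.
Slamf1, tyrosine 288: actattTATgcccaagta
Slamf1, tyrosine 335: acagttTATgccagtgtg
Slamf6, tyrosine 295: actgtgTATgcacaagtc
Slamf6, tyrosine 319: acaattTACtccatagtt
Ly9, tyrosine 587: actccaTATgataaagtg
Ly9, tyrosine 625: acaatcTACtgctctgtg
Cd84, tyrosine 265: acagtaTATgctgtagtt
Cd84, tyrosine 300: accattTATtcctcagtg

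Of the 8 motifs, 6 hold TAT and 2 hold TAC as the tyrosine codon, and no pair of them is identical over the 18 bases.

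The genes of 5 receptors lie together on chromosome 1 (GRCm38, mm10), within 365 kb. In order they are Ly9 (ENSMUSG00000004707, chr1:171588624-171607410, minus strand), Cd48 (ENSMUSG00000015355, chr1:171682009-171705258), Slamf1 (ENSMUSG00000015316, chr1:171767127-171801184), Cd84 (ENSMUSG00000038147, chr1:171839697-171890718) and Slamf6 (ENSMUSG00000015314, chr1:171917515-171953170), the last 4 on the plus strand. Sh2d1a (ENSMUSG00000005696) lies at chrX:42502453-42529330, plus strand. Of its 5505 exon bases, 1465 are shared with exons of Tenm1 on the opposite strand, so reads from these bases cannot be told apart. Tenm1 is therefore given beside Sh2d1a. Ly9 overlaps Cd244a, Slamf6 overlaps the antisense transcript Gm37065, and Cd48 overlaps the unclassified transcript Gm37010, each with 0 shared exon bases.

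Values are TPM, which give each transcript's abundance after correction for its length and the library's total, so levels can be compared between genes. TPM keep no read depth, and the depth behind each value is unknown. Listed values summed to between 819697 and 938139 per library. Bead and unstimulated libraries came in tables with different gene lists (31785 and 36904 genes), which bears on every level compared across treatment. A scale factor from 815 abundant genes (those averaging 50 TPM or more in each group) was 0.888 to 1.24 in unstimulated WT, 0.675 to 1.06 in unstimulated KO, 1.05 to 1.1 in WT with beads, and 1.14 and 1.19 in KO with beads. A group of 55 predicted genes of very high level took 20.5% to 41.5% of TPM in unstimulated WT, 33.3% to 54% in unstimulated KO and 12.1% to 22.2% with beads. Dividing by the scale factor moved the median log2 difference over all genes from -0.11 to 0.12 for KO against WT at rest, from 0.13 to 0.07 with beads, from -0.44 to -0.42 for the bead response in WT, from -0.23 to -0.46 in KO, and from 0.27 to -0.06 for the difference between responses. Values divided in this way are called scaled.

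Dock8, which checks the labels, was at 13.7, 13.7, 9.15 and 22 TPM in unstimulated WT libraries and at 6.70 to 11.9 TPM, median 7.90, in unstimulated KO (n = 6). The WT bead libraries held 8.71, 10.1 and 8.91 TPM, and those of KO 7.90 and 5.82 TPM. The difference at rest was -0.67 on the log2(TPM + 1) scale (limma adjusted p = 0.369), and the groups overlapped. TPM sum over the whole gene, including parts outside the floxed region, so the value is not a direct measure of the deleted part.

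All 6 genes were detected in all 15 libraries. In unstimulated WT cells Slamf6 stood highest (126 ± 60.3 TPM, SD, n = 4), followed by Sh2d1a (96.7 ± 37.4), Cd48 (93.7 ± 34.4), Cd84 (63.0 ± 9.82), Ly9 (22 ± 4.79) and Slamf1 (13.5 ± 4.64). The first 3 did not separate beyond their spread, and Cd84 lay above Ly9 with no overlap between their ranges. Ly9 and Slamf1 overlapped. Unstimulated KO cells had the same gene on top, Slamf6 at 54.6 ± 20 TPM (n = 6), and the same 2 genes at the bottom. There every pair of neighbours in the order overlapped. With beads the order changed at the top in both genotypes: Cd48 lay above Slamf6 in all 3 WT and both KO libraries, and Slamf6 above Sh2d1a. In WT with beads Sh2d1a, Ly9, Cd84 and Slamf1 then followed with overlapping ranges, between means of 42.8 and 23.3 TPM.

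**Figure D1:**
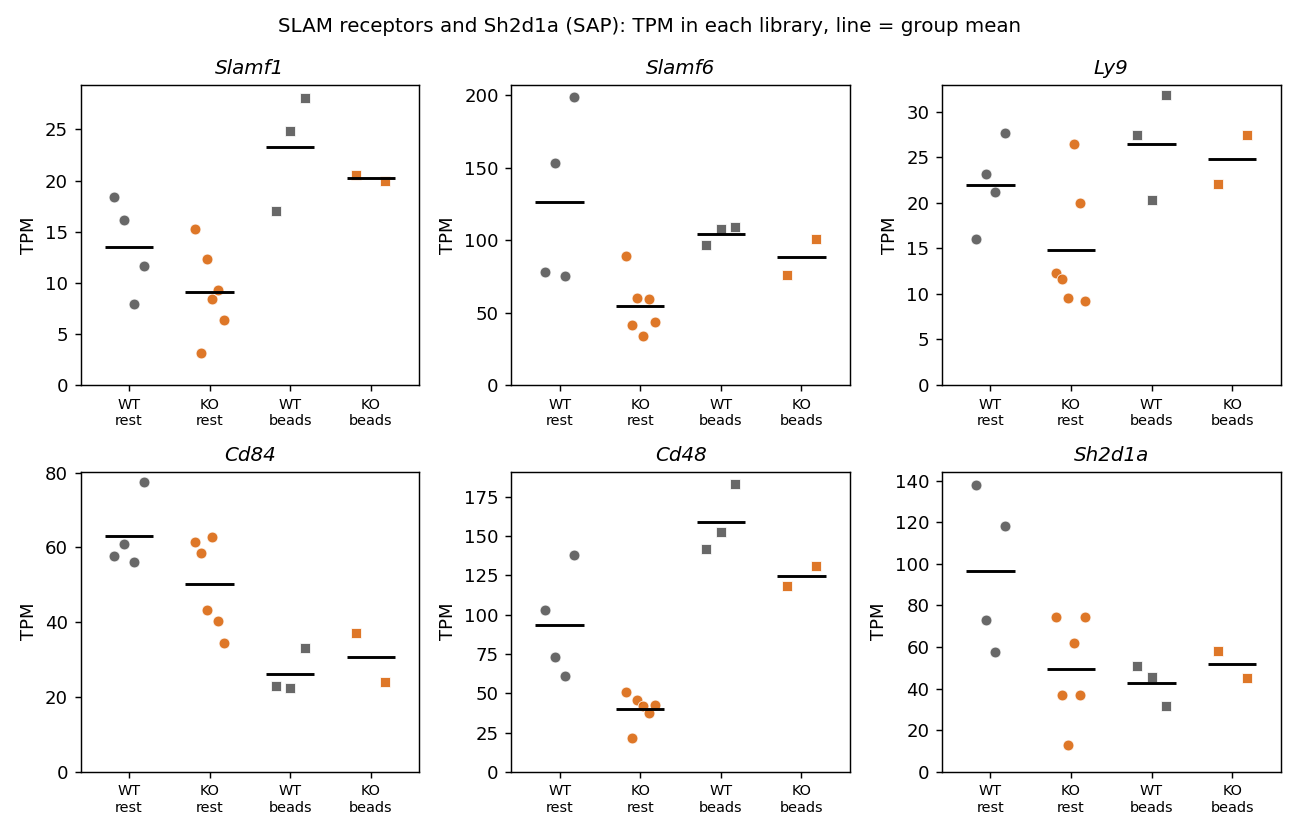
TPM (linear axis from 0) of each gene in each of the 15 libraries, by genotype and treatment. Circles are unstimulated and squares bead-treated libraries, grey is WT and orange KO, and the line is the group mean. Unstimulated KO libraries lie below every unstimulated WT library for Cd48, and bead libraries lie below every unstimulated WT library for Cd84.

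Bead treatment, which engages the T cell receptor and CD28, gave differences of both signs in WT cells. Cd84 fell and was the 1 gene of 6 called by limma at an adjusted p under 0.05, a rule that called 11.2% of all genes tested. At an unadjusted p under 0.05 there were 3 of 6 (Cd84, Cd48 and Sh2d1a), beside 26.1% of all genes. Every WT bead library lay below every unstimulated WT library for Cd84 and Sh2d1a, which 20.9% of all genes did, and above for Cd48, which 8.61% of all genes did. The median log2 difference of the 6 genes was 0.06. It was -0.44 for all genes tested and 0.19 for the 5937 genes that averaged 20 TPM or more in some group.

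Cd84, a receptor that binds itself and is known on T, B and myeloid cells, was at 57.7, 60.8, 56.2 and 77.5 TPM in unstimulated WT libraries. With beads the 3 WT libraries held 22.9, 22.4 and 33.2 TPM. All 3 were lower than any unstimulated library, by 1.25 on the log2 scale on average (SE 0.29, 95% interval -1.87 to -0.62, limma adjusted p = 0.0132), and the ratio of means was 0.415. The exact two-sided permutation p was 0.0286, the smallest that 4 against 3 libraries allow. The call was lost with median-ratio scaling (-0.64, limma adjusted p = 0.129) and without WT bead library 1 (-1.17, adjusted p = 0.0654) or 2 (-1.15, adjusted p = 0.0643). It held when scaled to the abundant genes (-1.24, limma adjusted p = 0.00552).

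Cd48, the lipid-anchored ligand of CD2, was at 103, 72.9, 61.1 and 138 TPM in unstimulated WT and at 142, 153 and 183 TPM in WT with beads. All bead libraries were higher, though library 3 of the unstimulated group, at 138 TPM, came close to the lowest of them. The difference of 0.82 (SE 0.33, 95% interval 0.12 to 1.53) did not pass (limma adjusted p = 0.127; exact permutation p = 0.0571). It passed with median-ratio scaling (1.44, limma adjusted p = 0.0129) and with array weights (0.87, adjusted p = 0.0304).

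Sh2d1a was at 138, 73.2, 57.8 and 118 TPM in unstimulated WT and at 50.9, 45.7 and 31.7 TPM in WT with beads. The groups did not overlap, but the difference of -1.10 (SE 0.51) did not pass (limma adjusted p = 0.183; exact permutation p = 0.0571). Tenm1, whose exons overlap those of Sh2d1a, fell from 18.8 ± 3.49 (SD, n = 4) to 4.95 ± 1.91 TPM (n = 3; limma adjusted p = 0.00465), and its part in the Sh2d1a value was not tested.

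The other receptors of WT cells showed no called change. Slamf1, which binds itself and is also known as a receptor for measles virus in humans, was at 18.4, 16.1, 7.95 and 11.6 TPM without beads and at 17.0, 24.8 and 28.1 TPM with them. Its difference was 0.78 (95% interval -0.14 to 1.69, limma adjusted p = 0.270). Slamf6, a self-binding receptor known on follicular helper and progenitor-like T cells, was at 78.2, 153, 75.0 and 199 TPM without beads and at 96.8, 108 and 109 TPM with them. Its 2 highest libraries of all 15 were thus unstimulated WT libraries 3 and 1, and the difference was -0.15 (95% interval -0.96 to 0.66). Ly9, a self-binding receptor of most T and B cells, was at 16.0, 23.1, 21.2 and 27.6 TPM without beads and at 27.4, 20.3 and 31.8 TPM with them, a difference of 0.26 (95% interval -0.51 to 1.04). For all 3 the groups overlapped.

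In KO cells, beads were followed by a rise in Cd48, which was the 1 gene of 6 called, where limma called 8.11% of all genes tested. At an unadjusted p under 0.05 there were 3 of 6 (Cd48, Slamf1 and Cd84), beside 21.4% of all genes. Both KO bead libraries lay above all 6 unstimulated KO libraries for Cd48 and for Slamf1, as they did for 11.2% of all genes, and for none of the 6 genes did they lie below, as they did for 11.5% of all genes. The median difference of the 6 genes was 0.77 as deposited, beside -0.23 for all genes and 0.74 for the 5937 genes that averaged 20 TPM or more in some group.

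Cd48 was at 51.0, 21.2, 45.5, 42.2, 37.4 and 42.7 TPM in the unstimulated KO libraries (median 42.4) and at 118 and 131 TPM in the KO libraries with beads. As deposited, the groups were far apart, with a ratio of means of 3.12. The difference was 1.67 (SE 0.35, 95% interval 0.91 to 2.42, limma adjusted p = 0.00875), and the exact permutation p of 0.0357 is the smallest that 6 against 2 libraries allow. Relative to the mean of the CD3 chains Cd3d, Cd3e and Cd3g in the same library, the groups overlapped. That log2 ratio, chosen after the values were seen, was -1.6 to -0.64 at rest and -0.76 and -0.45 with beads. It moves with these chains as well as with Cd48. The call of Cd48 held when scaled to the abundant genes (1.19, limma adjusted p = 0.0263). The call was lost without KO bead library 4 (1.74, limma adjusted p = 0.0878) or 5 (1.59, adjusted p = 0.140), with quantile normalization (1.10, adjusted p = 0.0703), and without the 4 unstimulated KO libraries whose scale factor lay below every unstimulated WT library (1.41, adjusted p = 0.0736).

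Slamf1 was at 3.15 to 15.3 TPM, median 8.83, in the 6 unstimulated KO libraries and at 20.5 and 20 TPM in KO with beads. The groups did not overlap, but the difference of 1.20 (SE 0.46) did not pass over all genes (limma adjusted p = 0.138). Scaled, it was 0.76.

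Cd84 ran from 34.4 to 62.9 TPM, median 50.8, in unstimulated KO and was at 37.2 and 24.1 TPM in KO with beads. As deposited, the ranges overlapped and the difference was -0.69 (95% interval -1.36 to -0.02, limma adjusted p = 0.220). It passed when scaled to the abundant genes (-1.16, limma adjusted p = 0.0140), with quantile normalization (-1.16, adjusted p = 0.0122) and when the 55 predicted genes were taken out of the total (-1.23, adjusted p = 0.00943). Scaled, the unstimulated libraries ran from 48.5 to 78.8 and the bead libraries from 21.1 to 31.2, with no overlap. Relative to the mean of the CD3 chains Cd3d, Cd3e and Cd3g in the same library, a measure chosen after the values were seen, the log2 ratio of Cd84 was -1.50 to -0.03 in unstimulated KO and -2.41 and -2.85 with beads. In WT it was -1.69 to -1.08 and -2.80 to -2.43. The CD3 chains belong to the 11 T cell identity genes, whose median difference with beads was 1.19 in KO and 0.28 in WT. In KO all 11 were above 0. The ratio thus moves with these chains as well as with Cd84, and the part of each was not tested.

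Slamf6 ran from 33.8 to 89.4 TPM, median 51.4, in unstimulated KO and was at 75.9 and 101 TPM with beads (difference 0.74, limma adjusted p = 0.321). Ly9 ran from 9.27 to 26.4 TPM, median 11.9, and was at 22.1 and 27.4 TPM with beads (difference 0.79, limma adjusted p = 0.260). Sh2d1a ran from 12.8 to 74.4 TPM, median 49.6, and was at 58.3 and 45.1 TPM with beads. Its difference of 0.25 (95% interval -0.90 to 1.41) changed sign when scaled (-0.22), so no direction can be given. For these 3 genes the groups overlapped.

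**Figure D2:**
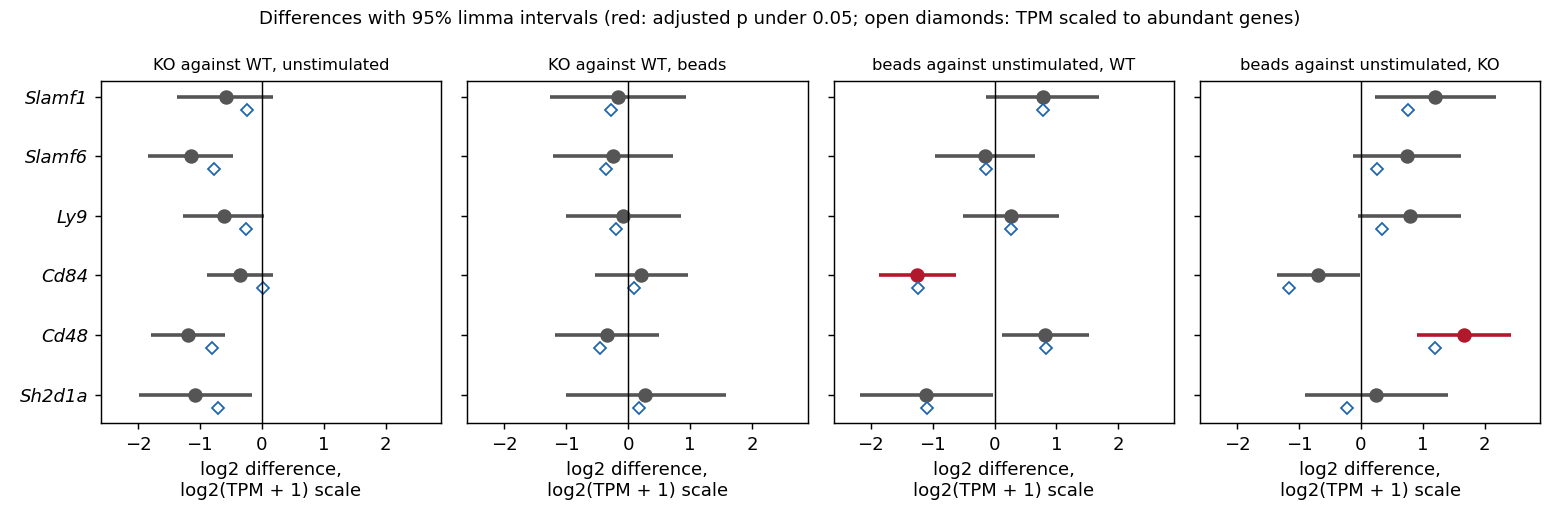
log2 differences of the 6 genes in the 4 comparisons of 2 groups, on the log2(TPM + 1) scale, with 95% limma intervals. Red marks an adjusted p under 0.05, and open diamonds are the differences after scaling to abundant genes. Cd84 in WT and Cd48 in KO are the red points, at -1.25 and 1.67. Scaled differences lie to the right of the deposited ones for KO against WT at rest and to the left for the bead response in KO.

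The 2 bead responses were then compared with each other. None of the 6 genes was called for the difference between bead responses, KO minus WT, where limma called 0.00333% of all genes tested, and none had an unadjusted p under 0.05, beside 4.16% of all genes. All 6 differences were above 0 as deposited, from 0.42 for Slamf1 to 1.35 for Sh2d1a (95% interval -0.23 to 2.94). Their median was 0.70, beside 0.27 for all genes and 0.47 for the 5937 genes of at least 20 TPM. Scaled, the 6 differences ran from -0.03 (Slamf1) to 0.87 (Sh2d1a). The difference was 0.84 for Cd48 (95% interval -0.19 to 1.87) and 0.56 for Cd84 (95% interval -0.36 to 1.48). These 2 genes were thus called in one genotype each without a shown difference between genotypes. The unstimulated KO libraries enter both the bead response in KO and the comparison of KO with WT at rest, so those values are not independent.

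KO and WT cells were compared at rest, before stimulation. The groups differ in the sort on YFP as well as in DOCK8. For no gene, at rest or with beads, can the sort be told apart from DOCK8 deficiency. At rest none of the 6 genes was called, where limma called 0.0734% of all genes tested. At an unadjusted p under 0.05 there were 3 of 6 (Cd48, Slamf6 and Sh2d1a), beside 11.3% of all genes. All 6 had lower means in KO as deposited, with a median difference of -0.84 beside -0.11 for all genes tested. For the 5937 genes of at least 20 TPM the median was -0.44, for the 11 T cell identity genes -0.77 and for the 11 Treg identity genes -1.14. Scaled, 5 of the 6 stayed below 0 and Cd84 was at 0.02.

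Cd48 was the gene whose groups separated. The 6 KO libraries, at 21.2 to 51.0 TPM, lay below the 4 WT libraries, at 61.1 to 138 TPM. Of all genes tested 1.27% lay wholly lower in KO in this way and 0.293% wholly higher, and Cd48 was the 1 gene of the 6 that did either. The difference was -1.19 (SE 0.28, 95% interval -1.78 to -0.59, limma adjusted p = 0.144), and the exact permutation p of 0.00476 is the smallest that 4 against 6 libraries allow. Scaled, the ranges were 28.5 to 63.3 in KO and 63.9 to 111 in WT, still apart by a narrow margin, with a difference of -0.81 (limma adjusted p = 0.346). Relative to the CD3 chains the ranges overlapped, at -1.6 to -0.64 in KO and -1.27 to -0.74 in WT.

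Slamf6 had a difference of -1.14 (SE 0.32, limma adjusted p = 0.210; exact permutation p = 0.0238). KO libraries reached 89.4 TPM, above the 2 lowest WT libraries, so the groups overlapped, and 5 of 6 KO libraries lay below every WT library. Sh2d1a had a difference of -1.07 (SE 0.43, limma adjusted p = 0.363; exact permutation p = 0.0762), with the KO libraries at 74.4, 37.1, 12.8, 62.1, 37.0 and 74.4 TPM. Library 2, at 12.8 TPM, was the lowest of all 15, and the highest 2 KO libraries exceeded 2 of the 4 WT libraries. Tenm1 was at 23.7 ± 7.29 TPM in KO (n = 6) and 18.8 ± 3.49 TPM in WT (n = 4), not lower. Ly9 (-0.61, 95% interval -1.27 to 0.04), Slamf1 (-0.58, 95% interval -1.36 to 0.19) and Cd84 (-0.35, 95% interval -0.88 to 0.18) had smaller differences and overlapping groups.

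KO and WT cells were compared again after bead treatment. The titles number the WT bead libraries 1, 2 and 3 and the KO bead libraries 4 and 5, so no number is shared. With beads, genotype therefore cannot be told apart from whatever the title number stands for, which the labels do not say. The difference between bead responses uses the same bead libraries. None of the 6 genes was called for KO against WT with beads, where limma called 0.00333% of all genes, and none had an unadjusted p under 0.05, beside 2.89% of all genes. The differences ran from -0.34 for Cd48 to 0.28 for Sh2d1a, with a median of -0.12 beside 0.13 for all genes. Both KO bead libraries lay below all 3 WT bead libraries for Cd48 (118 and 131 against 142, 153 and 183 TPM), as they did for 8.02% of all genes tested, and for none of the 6 did they lie above, as they did for 17.4%. Here 3 against 2 libraries cannot give an exact p under 0.1. The 95% interval of the log2 difference was -1.18 to 0.50 for Cd48, -1.01 to 1.58 for Sh2d1a and -0.54 to 0.96 for Cd84. The 24 exact tests of 6 genes in 4 comparisons gave 4 with an unadjusted p under 0.05.

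CD2, the receptor that CD48 binds, and the remaining family members were read beside the 6 genes. Cd2 rose with beads in both genotypes. It was at 168, 113, 98.6 and 124 TPM in unstimulated WT and at 448, 418 and 458 TPM with beads (difference 1.83, SE 0.33, limma adjusted p = 0.00302). In KO it ran from 34.6 to 103 TPM, median 66.6, at rest and was at 343 and 426 TPM with beads (difference 2.61, SE 0.35, limma adjusted p = 0.000429). Both calls held in all alternatives run, 21 in WT and 23 in KO. The ratios of means, beads against unstimulated, were 3.50 in WT and 5.87 in KO for Cd2, and 1.70 (not called) and 3.12 for Cd48. For Cd48 the unstimulated WT library 3, at 138 TPM, lay above both KO bead libraries, at 118 and 131 TPM.

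**Figure D3:**
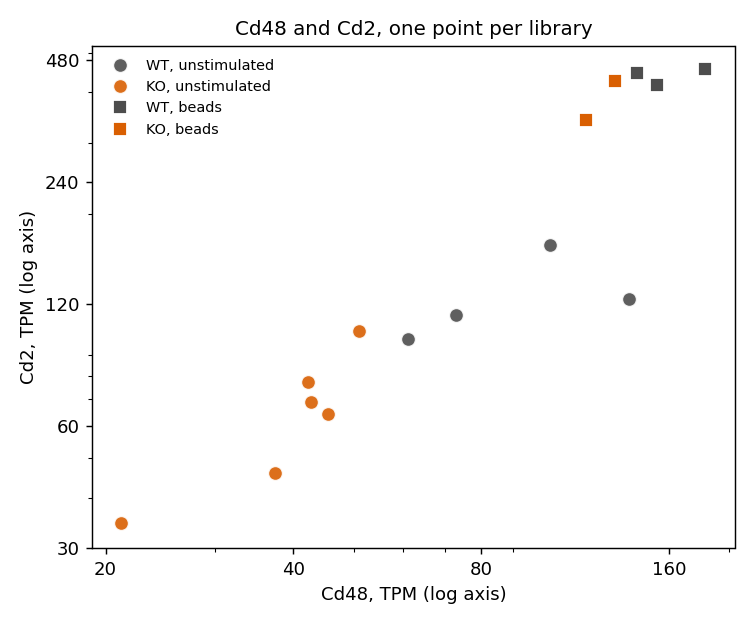
Cd48 and Cd2 in TPM, 1 point per library, on log axes. Circles are unstimulated and squares bead-treated libraries, grey is WT and orange KO. The 5 bead libraries lie at the upper right, with Cd48 from 118 TPM and Cd2 from 343 TPM, and the 6 unstimulated KO libraries at the lower left, with Cd48 up to 51.0 TPM.

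Of the 6 measured genes in the list of other SLAM family genes and CD2, 2 rose and 1 fell with beads in WT, and 1 rose in KO. Over all genes limma called 11.2% and 8.11%. Besides Cd2, Slamf7 (CRACC, a receptor of NK and activated cells) rose in WT from 3.01 ± 1.21 (SD, n = 4) to 8.57 ± 2.66 TPM (n = 3; limma adjusted p = 0.0348). Cd244a fell in WT from 7.37 ± 1.73 to 2.15 ± 1.22 TPM (limma adjusted p = 0.0373), and lay lower in KO too, at 2.8 ± 0.540 against 7.91 ± 3.95 TPM, without passing (adjusted p = 0.160). These 2 calls in WT held in 9 and 6 of 19 alternatives. Slamf8 and the SAP relatives Sh2d1b1 and Sh2d1b2 were low, with group means of 0 to 2.11 TPM.

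The balance of the adaptor and its receptors was described within each library, as ratios of (TPM + 1). Apart from the added 1, such a ratio does not move with the library's scale. The log2 ratio of Sh2d1a to the mean of the 4 receptors with tail motifs was 1.67, 0.21, 0.52 and 0.57 in unstimulated WT, and 0.30, 0.06 and -0.66 in WT with beads. In KO it ran from -1.23 to 1.63 at rest and was 0.57 and 0.07 with beads. SAP transcript thus stood at or above the receptor mean in 13 of 15 libraries, and all groups overlapped. The part of Tenm1, which shares exon bases with Sh2d1a, in these ratios was not tested. The log2 ratio of Slamf6 to Slamf1 was 3.07 ± 0.80 (SD, n = 4) in unstimulated WT and 2.51 ± 0.49 (n = 6) in unstimulated KO, and 2.14 ± 0.27 (n = 3) and 2.05 ± 0.31 (n = 2) with beads. Slamf6 exceeded Slamf1 in every library.

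**Figure D4:**
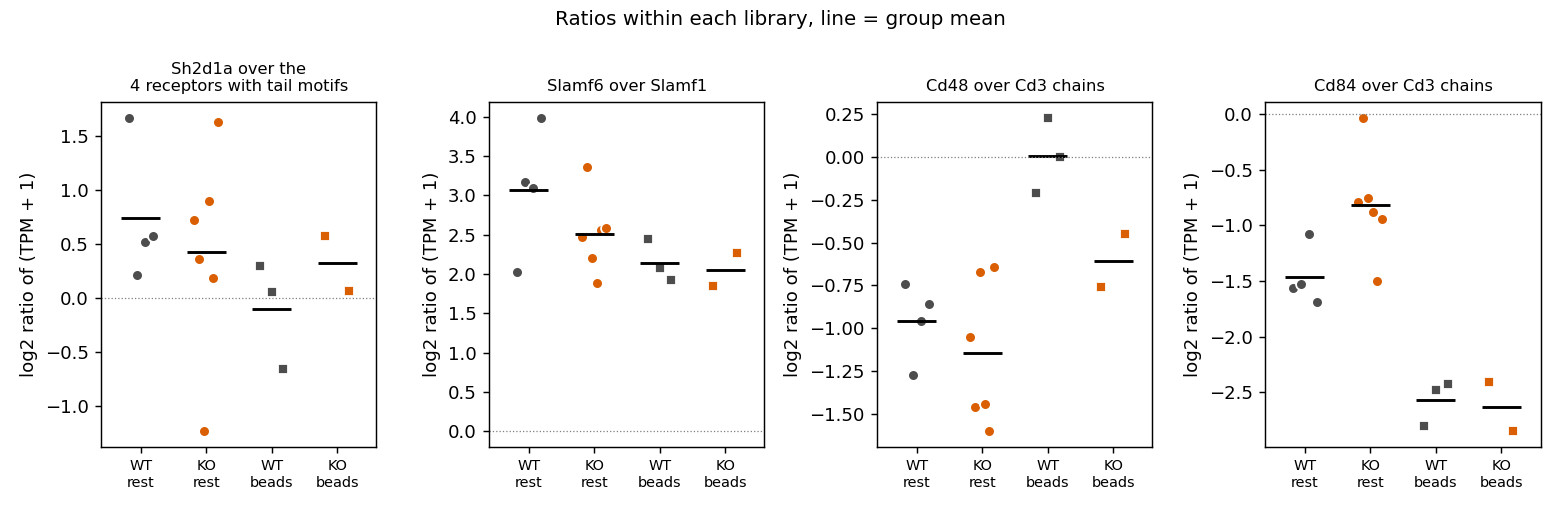
log2 ratios of (TPM + 1) within each library, by genotype and treatment, with the group mean as a line; circles are unstimulated, squares bead-treated, grey WT and orange KO. The ratio of Cd84 to the mean of Cd3d, Cd3e and Cd3g is -1.69 or higher in every unstimulated library and -2.41 or lower in every bead library, and that of Cd48 is highest in WT with beads.

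Downstream of the receptors, 20 signalling partners of SLAM and SAP were all measured. With beads 2 rose and 1 fell in WT, where limma called 11.2% of all genes, and 2 rose in KO, where it called 8.11%. None was called between genotypes at rest or with beads (limma). Ptpn6, which encodes the phosphatase SHP-1, rose from 29.5 ± 8.59 to 127 ± 21.1 TPM in WT (SD, n = 4 and 3; limma adjusted p = 0.00105) and from 18.2 ± 5.56 to 184 ± 5.14 TPM in KO (n = 6 and 2; adjusted p = 6.76e-05). Csk, an inhibitory kinase of FYN and LCK, rose from 14.6 ± 5.04 to 31.6 ± 1.84 TPM in WT (limma adjusted p = 0.0430) and from 9.10 ± 2.91 to 30.8 ± 0.870 TPM in KO (adjusted p = 0.00848). Prkcq, which encodes protein kinase C theta, fell in WT from 49.2 ± 12.1 to 21.2 ± 1.17 TPM (limma adjusted p = 0.0184). The median difference of the 20 with beads was -0.04 in WT and 0.60 in KO, beside -0.44 and -0.23 for all genes. For the 5937 genes of at least 20 TPM, a level that some of the 20 did not reach, it was 0.19 and 0.74. The Csk and Prkcq calls in WT held in 12 and 15 of 21 alternatives.

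Of 6 genes tied to CD2 and CD48 ligation, none was called in WT with beads or between genotypes (limma). Their median difference with beads was 0.53 in WT and 0.86 in KO. It was -0.44 and -0.23 for all genes, and 0.19 and 0.74 for the 5937 genes of at least 20 TPM. Sh2d2a, which encodes the adaptor TSAd, rose with beads in KO from 78.8 ± 35.9 (SD, n = 6) to 205 ± 9.87 TPM (n = 2; limma adjusted p = 0.0258), a call that held in 18 of 23 alternatives.

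A list of 12 genes of T cell programmes known to need SAP (follicular helper and NKT cells) gave 1 lower gene in KO at rest. With beads 1 was higher and 3 were lower in WT, and 2 were higher in KO. Limma called 0.0734%, 11.2% and 8.11% of all genes in these comparisons. Pdcd1, which encodes the inhibitory receptor PD-1, stood at 63.7 ± 26.4 TPM in resting WT (SD, n = 4) and 6.98 ± 5.24 TPM in resting KO cells (n = 6; limma adjusted p = 0.0185, below 0.05 in 20 of 25 alternatives). With beads in WT, Il4 rose from 2.39 ± 3.44 to 98.9 ± 58.5 TPM (limma adjusted p = 0.00203) and Tcf7, a transcription factor of naive and memory-like T cells, fell from 104 ± 46.6 to 17.4 ± 6.62 TPM (adjusted p = 0.00119). Cxcr5 and Bcl6, the receptor and transcription factor of follicular T cells, also fell (limma adjusted p = 0.0403 and 0.0490), and these calls held in 8 and 6 of 19 alternatives. In KO, Pdcd1 rose to 40.8 ± 1.06 TPM (limma adjusted p = 0.00773) and Icos to 89.7 ± 5.61 from 20.3 ± 16.2 TPM (adjusted p = 0.0167). These calls held in 20 and 17 of 23 alternatives, and both were lost without KO bead library 4, without library 5, and without the 4 unstimulated KO libraries of low scale factor. The call of Icos was also lost with quantile normalization, with the 2 groups fitted alone and with the replicate block. The highest limma adjusted p was 0.110 for Pdcd1 and 0.177 for Icos. With beads no gene of the list was called between genotypes, a comparison of 2 KO with 3 WT libraries. Of the 12 differences 6 were above 0 and 6 below. Il4 was at 5.56 ± 2.18 TPM in KO with beads, a difference from WT of -3.79 (95% interval -6.04 to -1.53) that did not pass. The difference between bead responses was -4.37 for Il4 and 3.34 for Pdcd1 (limma adjusted p = 0.999 and 0.581).

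Cell identity was checked on the same libraries. The 11 T cell identity genes summed to 1070 to 3480 TPM, and 11 Treg identity genes to 410 to 971 TPM at rest and 2630 to 2870 TPM with beads. Foxp3, which defines Treg cells, was at 43.2 ± 10.4 and 13.3 ± 6.77 TPM in unstimulated WT and KO, and at 98.7 ± 9 and 42.5 ± 0.386 TPM with beads. Foxp3 lies on the X chromosome and drives the Cre of the YFP+ cells. Its difference between KO and WT therefore cannot be told apart from the Cre-bearing X or from the sort on YFP. With beads 6 of the 11 Treg genes rose and 1 fell in WT, and 7 rose and 1 fell in KO, while 0 and 3 of the T cell identity genes rose. Over all genes limma called 11.2% in WT and 8.11% in KO, shares that also apply to the marker lists below. SLAM receptors are also known on B cells, NK cells and myeloid cells. Summed B cell markers (10 genes) were 17.8 to 66.6 TPM, plasma cell markers (4 genes, Xbp1 included) 7.65 to 140 TPM, CD8 T and NK markers (9 genes) 14.8 to 68.3 TPM and myeloid and dendritic markers (10 genes) 5.61 to 52.2 TPM over all libraries. Platelet markers (5 genes) were 1.33 to 30.7 TPM, stromal markers (6 genes) 14.7 to 74.7 TPM, and gamma delta T and innate lymphoid markers (6 genes) 13.0 to 97.6 TPM. In WT the median sums without and with beads were 44.1 and 15.2 TPM for the CD8 and NK list (2 of 8 tested, Klrb1c and Cd8a, fell), 37.6 and 22.5 TPM for the B cell list (0 of 9), 16.3 and 10.1 TPM for the myeloid list (0 of 10) and 17.2 and 3.76 TPM for the platelet list (0 of 5). They were 55.2 and 16.4 TPM for the stromal list (2 of 6, Pecam1 and Pdgfra, fell). For the gamma delta and innate list they were 76.3 and 20.2 TPM (1 of 5, Il7r, fell). In KO the median sums without and with beads were 43.9 and 30.3 TPM (CD8 and NK), 47.1 and 42.2 (B cell), 19.9 and 9.93 (myeloid), 12.9 and 9.7 (platelet), 51.7 and 23.4 (stromal), and 39.2 and 24.8 (gamma delta and innate), with 1 gene called lower and 1 higher, both in the last list. These median sums were lower with beads in both genotypes, and so was the mean of Cd84, which was called in WT only as deposited. The median sum of the plasma cell list was higher with beads, at 104 against 40.5 TPM in WT and 71.7 against 23.5 TPM in KO. Median log2 differences of the lists with lower sums ran from -1.47 to -0.43 in WT and from -0.64 to 0.04 in KO. Over all genes the medians were -0.44 and -0.23. At rest the median sum of the gamma delta and innate list was 39.2 TPM in KO against 76.3 TPM in WT (all 5 tested genes below 0, none called), and that of the plasma cell list 23.5 against 40.5 TPM (3 of 4 below 0, none called). The part of these cells in the members' values was not tested. In KO with beads Gzma, S100a9 and Pdpn were at 0 in both libraries, and in the other groups no marker was at 0 throughout. In bulk samples fewer cells of a type and less RNA per cell cannot be told apart.

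Whether neighbouring genes moved with the cluster was read from the coding genes that start within 250 kb of it. The window held 24, of which 5 are the receptors above and 18 others were tested. None of the 18 was called between genotypes at rest or with beads. The median differences of the 18 with beads were -0.29 in WT and -0.05 in KO, beside -0.44 and -0.23 for all genes. Limma called 11.2% and 8.11% of all genes in these comparisons. Of the 18, 2 rose and 2 fell in WT, and 2 rose in KO. Named after their values were seen, these are Pfdn2 and Slamf7 up and Cd244a and Gm10521 down in WT, and Pfdn2 and Copa up in KO. Slamf7 and Cd244a are SLAM family genes already counted above. Of the genes beside Cd84, Gm10521 fell with it in WT (-1.45, limma adjusted p = 0.0388), and Slamf1 had a difference of 0.78 that did not pass.

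Since Cd48 and Cd84 were the called genes and had values in opposite directions, the 250 bases before their start sites are shown (RefSeq, GRCm38.p6, plus strand). Promoters were found for 4 of the 6 genes: Slamf1, Slamf6, Cd84 and Cd48. Capitals mark matches, on either strand, to 1 of 8 short motifs: ETS (CCGGAA), AP-1 (TGANTCA), RUNX (TGTGGT), the GATA factors (AGATAA), TCF/LEF (CTTTGA), the TATA box (TATAAA), E proteins (CAGCTG) and the GC box (GGGCGG). No motif overlapped another in these windows.
Cd84, chr1:171839447-171839696: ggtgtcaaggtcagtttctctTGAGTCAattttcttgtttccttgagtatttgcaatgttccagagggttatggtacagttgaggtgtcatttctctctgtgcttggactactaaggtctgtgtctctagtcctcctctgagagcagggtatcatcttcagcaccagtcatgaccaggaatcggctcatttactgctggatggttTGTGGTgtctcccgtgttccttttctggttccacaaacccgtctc
Cd48, chr1:171681742-171681991: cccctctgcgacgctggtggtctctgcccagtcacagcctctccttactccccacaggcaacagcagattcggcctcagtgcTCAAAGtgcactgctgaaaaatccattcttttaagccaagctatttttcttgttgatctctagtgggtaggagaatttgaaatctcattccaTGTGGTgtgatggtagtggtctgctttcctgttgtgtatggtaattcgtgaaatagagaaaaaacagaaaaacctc

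The Cd84 window held AP-1 at 229 to 223 bases and RUNX at 45 to 40 bases before the start, and the Cd48 window held TCF/LEF at 168 to 163 (opposite strand) and RUNX at 76 to 71 bases. Windows of this length held these letters at 6.75% (AP-1), 14.0% (RUNX) and 13.8% (TCF/LEF) of 32851 promoters, and ETS at 12%, GATA at 9.99%, TATA at 12.4%, E protein at 13.0% and GC box at 32.7%. None of the 8 was found before Slamf1 or Slamf6. A match is a description of the letters and not of a bound factor.

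The 6 genes did not vary as a unit. Over the 15 libraries, which share scale and treatment, the Pearson r of log2(TPM + 1) was 0.862 for Slamf1 with Cd48, 0.738 for Slamf6 with Cd48 and 0.674 for Ly9 with Cd48. It was -0.461 for Cd84 with Slamf1, -0.457 for Cd84 with Cd48, and 0.390 for Cd84 with Sh2d1a. With group means removed, the r with Cd48 was 0.697 for Slamf1, 0.507 for Slamf6, 0.120 for Ly9 and 0.127 for Cd84. Sh2d1a had an r of 0.0343 to 0.390 with the 5 receptors.

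Among 9981 genes that averaged 5 TPM or more in some group, those with the highest r over the 15 libraries included Nadk (0.984), Gdi2 (0.975) and Prdx6 (0.974) for Cd48, and Slc12a7 (0.950) and Dock2 (0.943) for Cd84. For Slamf1 they included Arl8b (0.965), Sugt1 (0.949) and Tuba1c (0.948), for Slamf6 Cul4b (0.921), Sipa1 (0.895) and Mtif3 (0.894), for Ly9 Lrrc32 (0.931), Trmt6 (0.911) and Arl1 (0.896), and for Sh2d1a Tox (0.872) and Ciz1 (0.863). Dock2, a DOCK family gene of lymphocytes, averaged 37.1 and 25.3 TPM in resting WT and KO cells and 13.8 and 13.3 TPM with beads.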

How the data were processed

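Per the labels, each of the 15 libraries came as a table of TPM per Ensembl gene made by the authors; the submitters' processing notes name STAR, Salmon, DESeq2 and mm10, with no version or role. The deposited TPM keep no depth, so no count model was fitted. Symbols and coordinates are from GENCODE vM21. A gene was tested if 2 or more libraries had 1 TPM or more (29989 genes). In limma 3.58.1 (R 4.3.3, trend option) log2(TPM + 1) was fitted with 1 mean per group over 15 libraries, and 5 contrasts were adjusted by the Benjamini-Hochberg method over all genes, called at 0.05. Every adjusted p is from limma. SE and 95% intervals are limma's, and ± is the SD between libraries. The steps were tested on simulated data. Members, gene lists and alternatives were chosen with earlier results of these data known. The 6 genes are always named, and from each list up to 4 called genes with the smallest p per comparison; genes most like each member (up to 3) exclude predicted genes, RIKEN clones, microRNAs, pseudogenes and receptor segments. Alternatives were other pseudocounts (0.1 and 5), filters (none, 5 TPM), 4 scalings, gene sets, array weights, only the groups compared, a replicate block and each library left out. After the data were seen, abundant-gene scaling within genes of at least 20 TPM and leaving out 4 unstimulated KO libraries were added. Some genes that the rule would name are not reported here.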

Additional observations from a re-analysis of the deposited data

How the results depend on the processing

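No member was called between genotypes, at rest or with beads, or for the difference between responses, under any alternative run. Leaving out a library gave 0 to 1 called members for the bead response in WT and 0 to 1 in KO. In WT the count was 2 with array weights and with abundant-gene scaling among genes of at least 20 TPM. In KO it was 2 with abundant-gene scaling, alone or among those genes, with predicted genes taken out and among genes of at least 20 TPM (where Slamf1 enters only through its bead means, so that its pass supports nothing), and 0 without the 4 KO libraries of low scale factor. Libraries that share a title number were not treated as pairs in the main fit. The 11 correlations of their deviations from group means ran from -0.0372 to 0.0549. These cannot exclude pairing, since in groups this small the deviations of the libraries offset one another. With the replicate block, unnumbered libraries left out, no member was called in KO with beads (0; Cd48 at 1.62, limma adjusted p = 0.0759), Sh2d1a was -0.45 for KO against WT with beads and -0.03 for the bead response in KO, and the genes called of all tested were 2321 in WT and 933 in KO.

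Signs that turned belonged to differences that were not called. Abundant-gene scaling, alone or among genes of at least 20 TPM, gave Cd84 0.02 for KO against WT at rest, Sh2d1a -0.22 for the bead response in KO and Slamf1 -0.03 for the difference between responses. Median-ratio scaling gave Cd84 -0.06 for KO against WT with beads, Slamf6 0.47 for the bead response in WT and Slamf1 -0.03 for the difference between responses. Sh2d1a in KO with beads was -0.27 with quantile normalization, -0.28 with predicted genes taken out, -0.40 without the 4 KO libraries of low scale factor and below 0 without KO library 2, and Ly9 in WT with beads was -0.07 with predicted genes taken out. Leaving out each library in turn, KO against WT with beads ran from -0.25 to 0.07 for Ly9 (above 0 without WT bead library 3, at 0.06, or KO bead library 4) and from -0.09 (without KO bead library 4) to 0.51 for Cd84. The bead response ran from -0.35 to 0.11 (without unstimulated library 3) for Slamf6 in WT and from -0.08 to 0.43 for Sh2d1a in KO. The causes were not tested. Over all alternatives, limma called 1 to 67 of all genes for KO against WT at rest (22 in the fit reported), 0 to 19 with beads (1), 1650 to 6042 for beads in WT (3366), 380 to 3961 in KO (2431) and 0 to 6 for the difference between responses (1). Without sequencing depth no counting error can be given.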

Other observations

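Transcripts that overlap the receptor genes had values of their own. Gm37010, which lies within the span of Cd48 on the same strand, fell with beads in WT. It went from 48.2 ± 8.95 (SD, n = 4) to 14.9 ± 2.28 TPM (n = 3, limma adjusted p = 0.00127). Cd48 itself was higher in every WT bead library than in any unstimulated WT library. Its difference was not called (limma adjusted p = 0.127). In KO Gm37010 was at 38.6 ± 3.62 TPM at rest and 22.3 ± 5 TPM with beads (n = 6 and 2, limma adjusted p = 0.0929). Gm37065, antisense to Slamf6, ran from 2.36 to 79.8 TPM over the 15 libraries, and its difference with beads in WT was -2.31 (limma adjusted p = 0.111). These genes were chosen after their values were seen.

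Slamf7 read 11.6, 6.90 and 7.17 TPM in the WT bead libraries, and the KO bead libraries held 3.18 and 2.98 TPM. Its difference between bead responses was -1.24 (SE 0.53, unadjusted p = 0.0347 in limma, adjusted p = 0.999), which does not pass.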
